A study of Artemia parthenogenetic lineage with 3 samples.

Results

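Intergenic upstream peaks were examined in *Artemia* cysts, defined as accessible regions lying 20 to 100 kb before the start of their nearest gene and overlapping no gene interval. The distance of each peak to its gene start was taken from the annotation of the merged peak list, and gene intervals were those of the 12002 genes named in that list. In all, 20921 peaks lay in the distance window, 3311 of them overlapped a gene and were set aside, and 17610 of the 108316 merged peaks (16.3%) remained. For each of these 17610 peaks, the nearest listed gene start was that of the assigned gene. They were assigned to 5079 of the 12002 listed genes and lay on 1528 contigs.

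ATAC-seq, in which the Tn5 transposase inserts sequencing adapters into open DNA so that read density measures chromatin accessibility, was performed on whole cysts of a parthenogenetic *Artemia* lineage. The group analysed, ArR_30min, comprised 3 replicates of wild-type (WT) cysts 30 min after embryonic diapause termination (EDT). All cysts had been dried and refrigerated to end diapause, then rehydrated and reactivated in artificial seawater under light. The study describes them as biological replicates from the same batch of cysts, which makes the SD (n = 3) a measure of variation within that batch. Each library is a bulk sample of the embryo, in which a site open in more nuclei and a site more open in each nucleus cannot be told apart. The reads were aligned to the assembly of a related species, *A. franciscana* (ASM3288406v1), and all coordinates below are on that assembly.

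In animal genomes, accessible DNA far from genes often contains enhancers, short elements that bind transcription factors and contact promoters by looping. Enhancers can act on genes other than the nearest one, and accessible intergenic DNA also includes insulators, promoters of unannotated genes and mobile elements. In arthropod embryos, distal enhancers control patterning genes and signalling receptors, which is the class of genes the study followed during EDT. The nearest gene is used below as an address, not as a target.

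The libraries held 53022269, 56882821 and 82440231 reads in replicates 1, 2 and 3, and the upstream peaks received 1061857, 1057520 and 1613273 of them. A median upstream peak was covered by 34, 36 and 56 reads, so counting error was smallest in replicate 3. The study also had cysts in diapause and at a later time, not analysed here, and merged peaks over all its samples to correlate them. Whether the list used here is that merge is not stated. The peaks the study called in these 3 libraries, most of them in replicate 3, together number fewer than the 108316 listed peaks. The list thus holds intervals not called in these libraries, and a listed peak is not taken as a peak call at 30 min. The exact interval below treats peaks as independent draws, and covers neither counting error of reads nor variation between replicates. Reads copied by PCR carry no molecular identifier and do not count single molecules.

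At 30 min after EDT, most of the upstream peaks had more reads than the mean density outside peaks would give, at a low level. Signal is given in RPM, the read count scaled to the library total. Across the 17610 peaks the mean signal over replicates had a median of 0.657 RPM, quartiles of 0.461 and 1.08 RPM, and 5th and 95th percentiles of 0.300 and 2.74 RPM. Compared with the read density outside peaks (30.2, 32.8 and 47.2 reads per kb), 15556 peaks were above background in all 3 replicates by a one-sided Poisson test with Benjamini-Hochberg adjustment over all peaks. This was 88.3% (exact 95% interval 87.85 to 88.81), against a background share of 90.2% among all listed peaks. The share was thus slightly below that of the list as a whole and lay between those of neighbouring intergenic zones, at 91.5% from 3 to 20 kb and 86.5% beyond 100 kb upstream. Above background in no replicate were 65 upstream peaks (0.369%), against 0.320% of all listed peaks. The call depends on the density used: with 2 times that density, 8441 upstream peaks (47.9%) remained above it, against 51.6% of all peaks. It takes no account of local background, and the listed intervals come from peak calls on reads, so a high share is partly built in. In each library the study itself called far fewer peaks than the 101458, 103909 and 106528 listed peaks above background here. Being above background is therefore not a peak call.

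Away from gene starts, the median signal differed little between distance zones. The median signal of the upstream peaks was 0.660, 0.650 and 0.691 RPM in replicates 1, 2 and 3 (0.667 ± 0.0214, SD, n = 3). The 10524 intergenic peaks 3 to 20 kb upstream had 0.736, 0.703 and 0.764 RPM (0.734 ± 0.0305), and the 6364 peaks beyond 100 kb had 0.622, 0.650 and 0.667 RPM (0.647 ± 0.0226). The upstream peaks were lower than the 3 to 20 kb zone in each library with no overlap between replicates, and equal to the zone beyond 100 kb in replicate 2. The 3126 peaks that cover a gene start, where the transcription machinery assembles, reached 2.24, 1.58 and 1.73 RPM (1.85 ± 0.347).

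**Figure D1:**
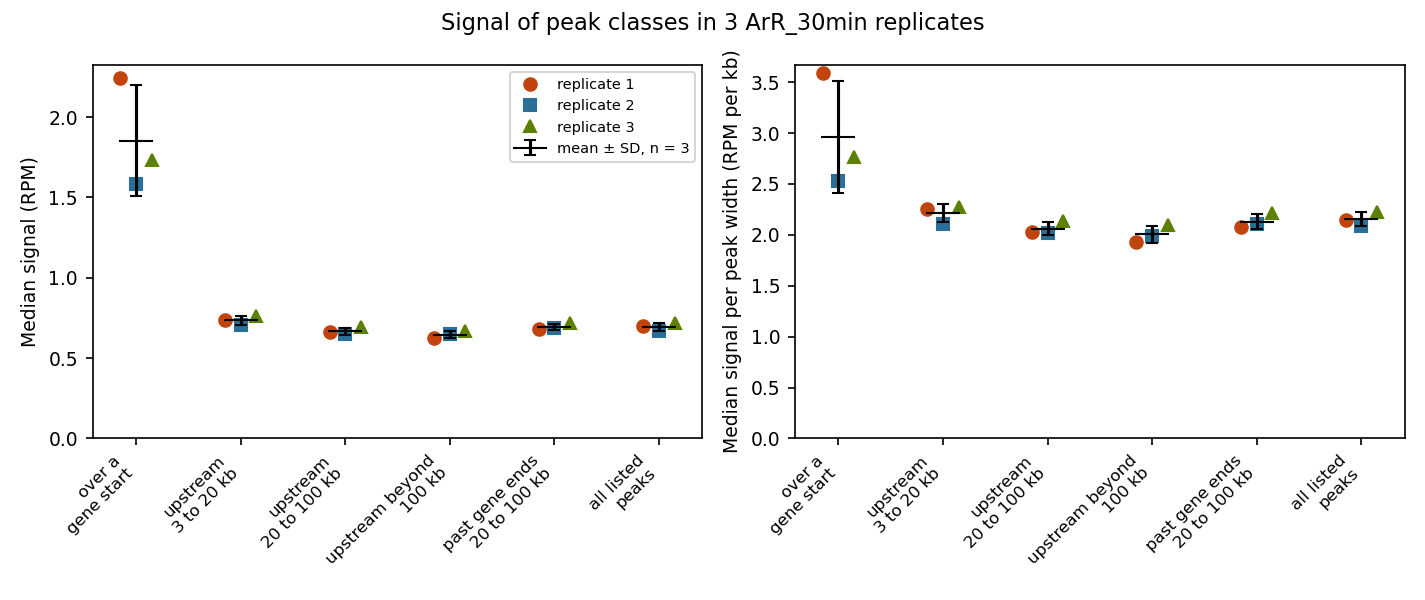
Median signal of peak classes in the 3 ArR_30min replicates, in RPM (left) and in RPM per kb of peak width (right); points are replicates, bars the mean ± SD (n = 3). The upstream 20 to 100 kb class sits at 0.667 RPM, just under the 3 to 20 kb class at 0.734 RPM and far under peaks over a gene start at 1.85 RPM.

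These differences were tested within each library, by the difference of median log2(RPM + 0.0691) between classes. An exact permutation test that flips the signs of the 3 replicate values, taken two-sided, was used, and its smallest possible p is 0.25. Against the 3 to 20 kb zone the difference was -0.14, -0.10 and -0.13, with a mean of -0.13 ± 0.02 (SD, n = 3, exact p = 0.25, 0.375 adjusted over 3 comparisons). It was negative in 3 of 3 replicates and larger than their spread. Against peaks beyond 100 kb the difference was 0.08, 0.00 and 0.05, with a mean of 0.04 ± 0.04 (exact p = 0.5, adjusted 0.5), which is no larger than the spread between replicates. The difference from start peaks was -1.67, -1.20 and -1.25, with a mean of -1.37 ± 0.26 (exact p = 0.25, adjusted 0.375), or 2.58-fold lower on this scale. Upstream peaks were narrower, 318 bp at the median (234 to 469 bp for the middle 50%), where start peaks measured 639 bp, and after division by width the difference was -0.47 ± 0.26. Divided by width, the differences from the 3 to 20 kb and beyond 100 kb zones were -0.09 ± 0.04 and 0.04 ± 0.02.

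The same contrast held gene by gene. For 1194 genes that had both a peak over the start and upstream peaks, the median upstream peak was below the start peak in all 3 replicates in 986 genes (82.6%) and above it in all 3 in 80 (6.70%). The median difference over these genes was -1.77, -1.25 and -1.27 (log2, mean -1.43 ± 0.29, SD, n = 3), a 2.69-fold lower signal. None of these gene-by-gene values is divided by width, and start peaks were wider. Between the classes, division by width brought the difference from -1.37 to -0.47. The strongest upstream peak of a gene exceeded its start peak in all 3 replicates in 206 genes (17.3%) and stayed below it in all 3 in 779 (65.2%). A gene with more upstream peaks has more chances of holding a strong one, which these last counts do not correct for.

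Within the 20 to 100 kb range, the density of peaks fell at each step up to 60 to 70 kb and rose after it. The median signal in RPM changed in no steady order. The number of peaks per Mb of upstream intergenic space was 65.4 from 20 to 30 kb, 58.3 from 60 to 70 kb and 62.7 from 90 to 100 kb, and 62.4 over the 282 Mb of the whole range. The space nearer to genes, 3 to 20 kb upstream, held 72.5 peaks per Mb, the space beyond 100 kb 55.1, and the 20 to 100 kb zone past gene ends 64.7. The median signal per 10 kb step was highest from 20 to 30 kb, at 0.693 ± 0.0196 RPM, and lowest from 60 to 70 kb, at 0.621 ± 0.0202 RPM (SD, n = 3). It was back at 0.657 ± 0.0198 RPM from 90 to 100 kb, close to the value from 40 to 50 kb, 0.661 ± 0.0267 RPM. Divided by width, the median fell at each step from 2.13 ± 0.0581 RPM per kb (20 to 30 kb) to 1.99 ± 0.0675 (70 to 80 kb). From 90 to 100 kb it was 2.03 ± 0.0808 RPM per kb. The nearest peaks inside the 20 kb limit, upstream of evm.TU.ctg1416.4, evm.TU.ctg221.15 and evm.TU.ctg760.4, had 1.74, 0.502 and 0.587 RPM, and the 3 nearest outside it had 0.481, 0.519 and 0.878 RPM. At the 100 kb limit the 3 nearest inside had 1.71, 0.904 and 0.304 RPM and the 3 nearest outside 0.483, 0.575 and 0.479 RPM.

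**Figure D2:**
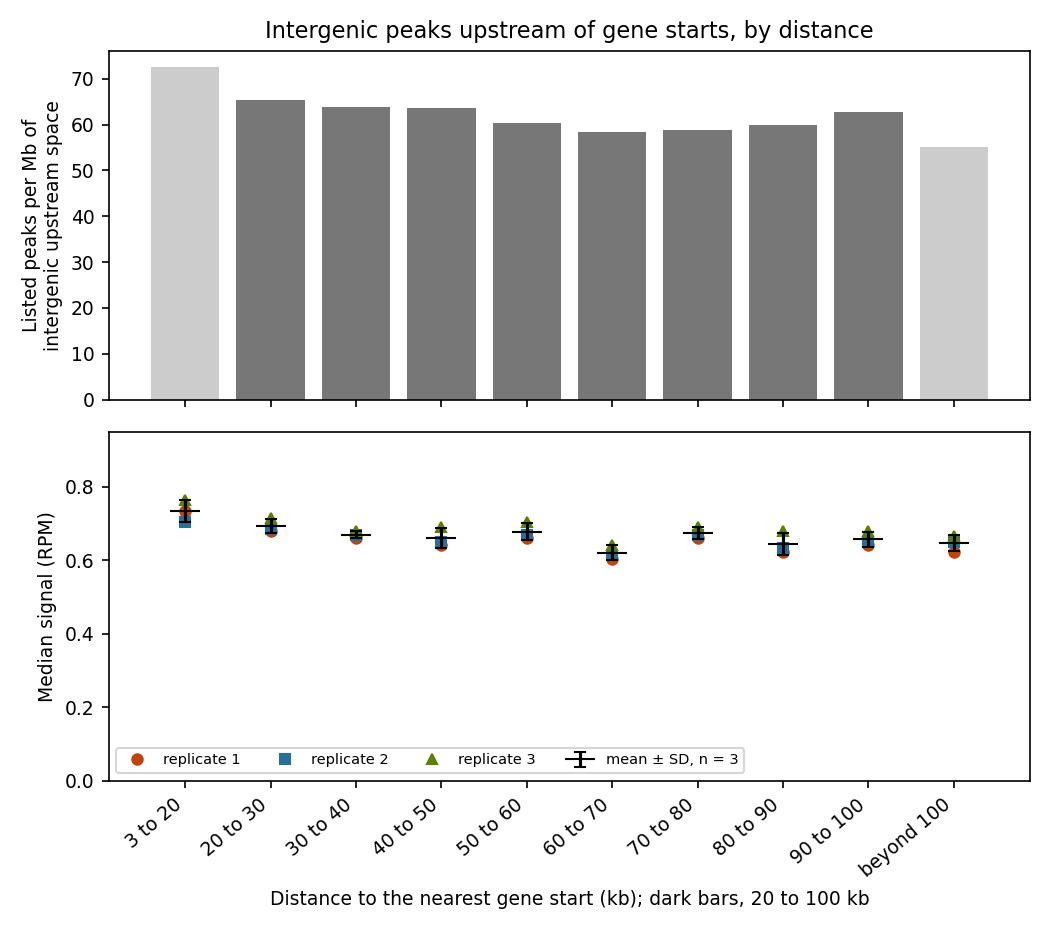
Top, listed intergenic peaks per Mb of intergenic space by distance upstream of the nearest gene start (dark bars, the 20 to 100 kb range; light bars, the zones on either side). Bottom, median signal in RPM per distance step; points are replicates, bars the mean ± SD (n = 3). Density goes from 72.5 to 55.1 peaks per Mb across the plot, while the medians inside the range lie between 0.621 and 0.693 RPM.

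Among the upstream peaks, signal was higher in wider peaks and in those with more summits. A single summit was listed for 9529 peaks (54.1%), with a median signal of 0.479 ± 0.0286 RPM, and 6 or more summits for 1917 (10.9%), with 2.35 ± 0.111 RPM. The 109 peaks of 1500 bp or more reached 5.89 ± 0.0586 RPM and held 11.2% of the reads in upstream peaks, whereas the 7883 peaks under 300 bp (44.8%) held 20.2%. Wide peaks were also denser: RPM per kb of width was 3.16 ± 0.0968 in peaks of 1500 bp or more and 2.00 ± 0.101 in those under 300 bp. Width was set by the peak calls on reads and is not independent of the signal.

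Reads were concentrated in few upstream peaks. The peaks received 16.4%, 16.7% and 16.5% of all reads in peaks (16.5% ± 0.118, SD, n = 3), close to their 16.3% share of the covered length. The strongest 1% of them (177 peaks) held 18.4% of these reads. This share was 9.59% from 3 to 20 kb upstream, 11.2% beyond 100 kb, 13.9% past gene ends and 13.03% among all listed peaks. At 10 RPM or more, 63 upstream peaks stood at 44 genes (0.358%, against 0.373% of all listed peaks), with a median width of 1444 bp and a median of 15 summits. The upstream peaks of evm.TU.ctg479.19 alone held 8.11% ± 0.481 of the reads in upstream peaks (SD, n = 3). The concentration thus came from a few extreme peaks, in large part at this gene, and not from a larger share of strong ones.

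The strongest of all 108316 listed peaks was among them. It lay at ctg479:1150435-1152441, 47.3 kb upstream of evm.TU.ctg479.19, and had 1096, 934 and 987 RPM in replicates 1, 2 and 3 (1005 ± 82.4, SD, n = 3), from 58086, 53122 and 81346 reads. It alone held 5.18% ± 0.253 of the reads in upstream peaks. Per kb of width its mean signal was 500.9 RPM, against a median of 2.06 RPM per kb for all upstream peaks. Whether accessibility alone gives so high a density was not tested. The deposited files give no name for evm.TU.ctg479.19. Another 5 of the 10 strongest upstream peaks belonged to the same gene. The peak 60.5 kb upstream had 204, 166 and 178 RPM, and that 49.98 kb upstream had 166, 132 and 140 RPM. The peak 72.8 kb upstream followed with 160, 131 and 143 RPM, and the peaks at 88.8 and 62.4 kb had means of 63.5 ± 7.64 and 31.7 ± 5.28 RPM. The gene's remaining upstream peak, 30.6 kb away, had only 0.358, 0.352 and 0.364 RPM, so the high signal was limited to 6 of its 7 upstream peaks.

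The other 4 of the 10 strongest belonged to different genes, none of them named in the files. A peak at ctg1300:1968-3563, 55.4 kb from evm.TU.ctg1300.2, had 319, 260 and 274 RPM (284 ± 30.9). The widest of all upstream peaks, 3723 bp with 52 summits and 68.3 kb from evm.TU.ctg799.5, had 52.1, 54.3 and 53.9 RPM. A peak that begins at the first base of its contig, 87.4 kb from evm.TU.ctg1832.1, had 34.1, 37.3 and 38.6 RPM, and one 45.2 kb from evm.TU.ctg141.15 had 33.0, 28.8 and 28.6 RPM. Replicate 1 was highest in 8 of these 10 peaks, against 34.6% of all upstream peaks. The 10 peaks together held 10.2% ± 0.570 of the reads in upstream peaks, and the next strongest had 29.1 RPM. For these 10 peaks, the part of assembly breaks, or of sequence with more copies than the assembly shows, was not tested. Their rank is therefore one of read density, not of accessibility alone.

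**Figure D3:**
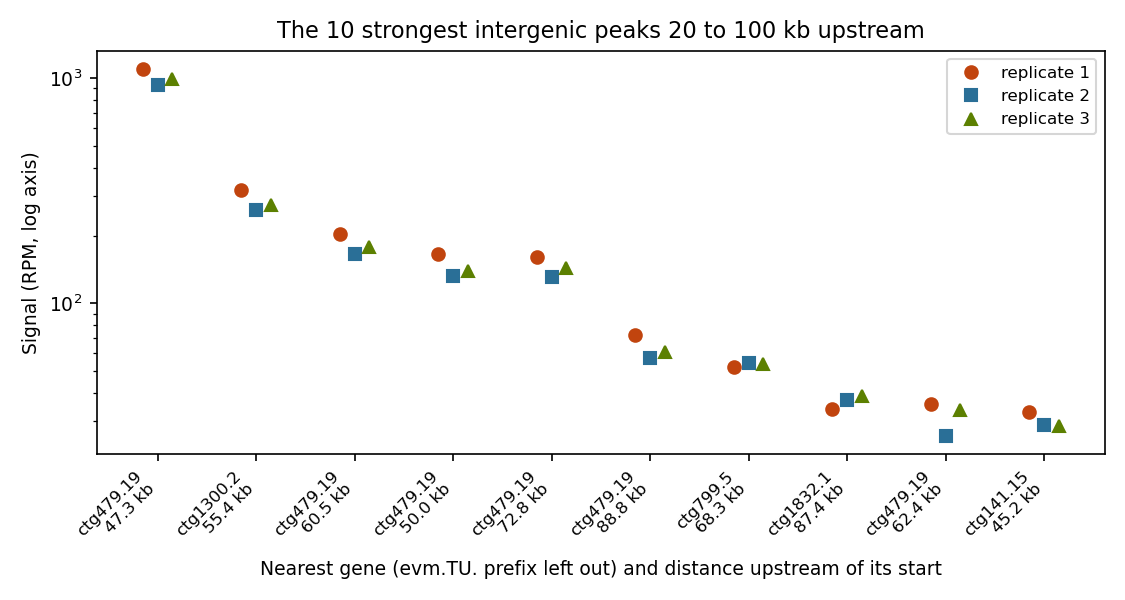
Signal of the 10 strongest upstream peaks in RPM on a log axis, by nearest gene and distance; points are replicates. The values run from 1005 RPM at evm.TU.ctg479.19 to 30.1 RPM at evm.TU.ctg141.15 (means), and 6 of the 10 peaks belong to evm.TU.ctg479.19. Whether accessibility alone gives these values was not tested.

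Replicates ranked the upstream peaks alike. Across the 17610 peaks, Pearson's r of log2 values was 0.873, 0.890 and 0.899 and Spearman's coefficient 0.814, 0.834 and 0.840 for the 3 pairs of replicates. These describe peaks that share libraries and widths, and peaks are not replicates. Peaks over a gene start were higher in replicate 1 than in the others, by a median of 0.46 on the log2 scale, whereas the upstream peaks were not, with a median of -0.02. Of all upstream peaks, 34.6% were highest in replicate 1, as were 36.6% of all listed peaks. Among the 1563 upstream peaks with at least 100 reads in every replicate (8.88%), 903 (57.8%) were highest in replicate 1, and their median was 0.17. That cutoff is on raw reads and asks most of replicate 1, the smallest library. It therefore favours peaks high in replicate 1 by construction. The coefficient of variation between replicates in these 1563 peaks had a median of 13.01% (quartiles 7.91% and 19.2%). Leaving out replicate 1 left the direction of the differences from the 3 to 20 kb and start peaks as it was.

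Upstream peaks stood about as close to other peaks as listed peaks in general. The nearest listed peak lay at a median distance of 3.38 kb, within 1 kb for 30.4% of them and within 10 kb for 78.3%, against 29.8% and 79.0% of all listed peaks. When peaks of the same gene with gaps of 10 kb or less were joined, 8865 runs resulted. Of these, 4632 were single peaks (26.3% of upstream peaks), and 562 runs of 5 or more held 3663 peaks (20.8%). Signal was higher in larger runs. Single peaks had a median of 0.547, 0.580 and 0.594 RPM (0.574 ± 0.0243, SD, n = 3) and the 630 peaks in the 46 runs of 10 or more 1.36, 1.39 and 1.39 RPM (1.381 ± 0.0198), with no overlap between replicates of the 2 sets. In RPM per kb these sets had 1.86 ± 0.0840 and 3.42 ± 0.0480, and 82.4% and 97.6% of their peaks were above background. Among peaks of the middle 50% of widths, single peaks had 0.562 ± 0.0332 and peaks in runs of 5 or more 0.767 ± 0.0257 RPM. Runs are built from listed peaks, whose listing itself depends on reads, and so these values are a description with no test.

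Neighbouring upstream peaks resembled each other in strength over short distances. The Spearman correlation of mean RPM between successive upstream peaks of a gene was 0.465 for gaps under 1 kb (2902 pairs), 0.290 from 1 to 10 kb (5841 pairs), 0.112 from 10 to 30 kb (3168 pairs) and 0.0553 beyond 30 kb (620 pairs). Pairs share their libraries and often a run, and peaks under 1 kb apart can lie in one open region.

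The contig on which a peak lay also went with its signal. Peaks on contigs that extend to at most 200 kb in the list had a median of 0.913 ± 0.0238 RPM (813 peaks), and those on contigs of over 2000 kb 0.635 ± 0.0281 RPM (5695 peaks), with ordered values in between. Peaks in runs of 5 or more were higher than single peaks on short and on long contigs. On contigs up to 500 kb the median was 0.617 ± 0.0137 RPM for single peaks and 1.18 ± 0.0371 RPM for runs of 5 or more, and on longer contigs 0.574 ± 0.0243 and 0.777 ± 0.0225 RPM. The 530 peaks within 20 kb of the first base of their contig had 0.825 ± 0.0131 RPM, against 0.667 ± 0.0214 RPM further in. The part of assembly breaks in these values was not tested.

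**Figure D4:**
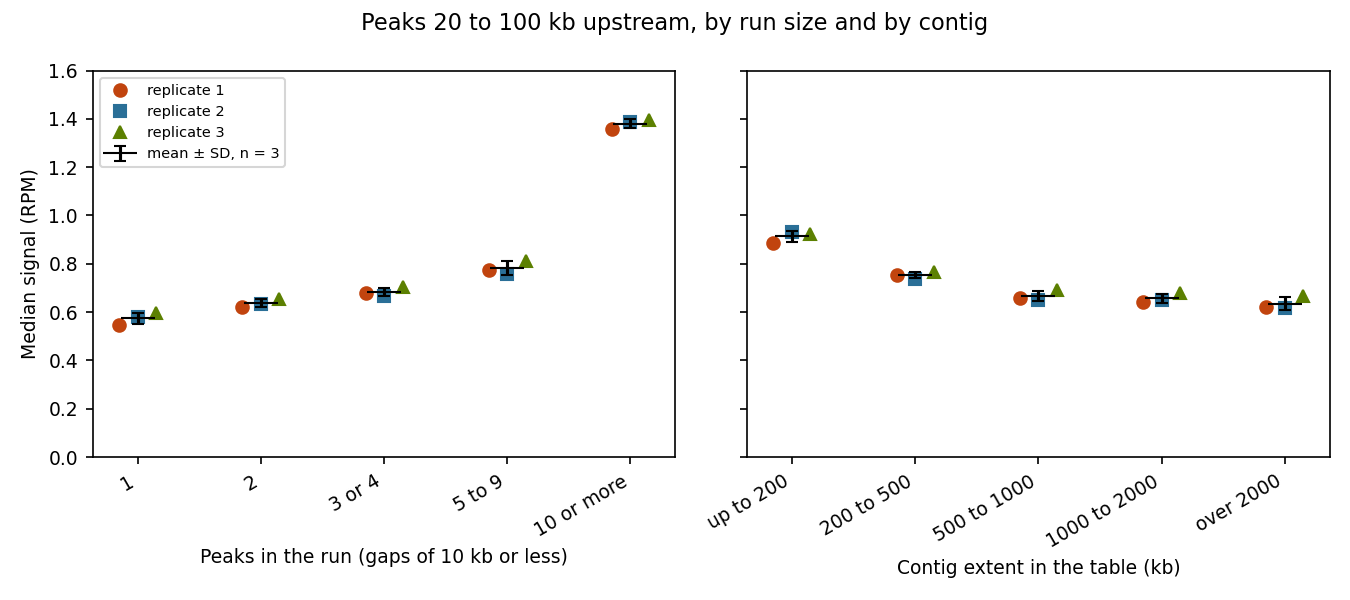
Median signal of upstream peaks in RPM by the number of peaks in the run (left) and by the extent of the contig in the list (right); points are replicates, bars the mean ± SD (n = 3). The medians go from 0.574 RPM for single peaks to 1.381 RPM in runs of 10 or more, and from 0.913 RPM on contigs up to 200 kb to 0.635 RPM on contigs over 2000 kb.

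The other side of the intergenic space was occupied in different ways. A gene end faced 7975 upstream peaks (45.3%), so that the next gene was transcribed toward the peak in the direction of the assigned gene, with a median gap of 114.5 kb between the genes. A second gene start faced 5316 peaks (30.2%, divergent genes, median gap 158 kb), and no listed gene lay between the peak and the end of the contig for 4319 (24.5%). Both gap medians are over peaks, so a gap with many peaks counts many times. Divergent starts must both lie over 20 kb from the peak, which favours wide gaps between them. The median signal was 0.641 ± 0.0234, 0.651 ± 0.0247 and 0.762 ± 0.0122 RPM in these 3 settings (SD, n = 3). In replicates 1, 2 and 3, divergent starts had 0.641, 0.633 and 0.679 RPM, and space behind another gene's end 0.622, 0.633 and 0.667 RPM. Within libraries, divergent starts were thus equal in replicate 2 and slightly higher in the others. The higher value next to no listed gene was 0.693 ± 0.0196 RPM on contigs over 500 kb and 0.831 ± 0.00545 RPM on shorter ones.

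Per gene, the number of upstream peaks had a median of 3 (quartiles 1 and 5). It was 1 for 1333 genes and 10 or more for 178 genes, with a maximum of 22. Of the 5079 genes, 106 had no listed peak other than upstream ones. For 1633 (32.2%) the strongest peak was an upstream one, where upstream peaks made up a median of 28.6% of a gene's listed peaks. The most upstream peaks, 22 each, stood before evm.TU.ctg1159.3, evm.TU.ctg133.2 and evm.TU.ctg2284.1, followed by 21 at the joined model evm.TU.ctg1406.7_evm.TU.ctg1406.6 and 20 at evm.TU.ctg1033.19. Their strongest upstream peaks reached 6.68 ± 0.493, 9.72 ± 0.993, 3.66 ± 0.104, 2.78 ± 0.564 and 15.2 ± 2.63 RPM in that order. At evm.TU.ctg133.2 the 22 peaks formed a single run over 77.6 kb, with none below 0.902 RPM. All of them were above background, as were 90.2% of all listed peaks. A run of 18 peaks over 54.0 kb before evm.TU.ctg799.5 summed to 163 RPM, and a run of 19 over 75.5 kb before evm.TU.ctg1190.6 to 101 RPM.

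The study named 21 signalling genes in its account of EDT, chosen in part on these samples and so not independent evidence. Upstream peaks were present at 14 of them, 62 peaks in all, with a median of 0.859 RPM against 0.657 RPM for all upstream peaks, and 57 of the 62 (91.9%) were above background in all 3 replicates against the 90.2% of all listed peaks. For 5 of these 14 genes the strongest peak was an upstream one, against 32.2% of all 5079 genes with upstream peaks.

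The most upstream peaks of this group stood before evm.TU.ctg470.4, annotated by the study as the epidermal growth factor receptor, a receptor tyrosine kinase that controls growth and cell fate. All 14 of its upstream peaks were above background in every replicate, as were 90.2% of all listed peaks. The strongest, at ctg470:387769-388954 and 37.1 kb from the start, had 5.96, 4.22 and 4.73 RPM (4.97 ± 0.895, SD, n = 3), stronger than 98.6% of upstream peaks. The next were 31.4 kb away with 2.60, 1.76 and 2.29 RPM, and 62.9 kb away with 2.64, 1.90 and 1.81 RPM. The lowest, 75.5 kb away, had 0.355 ± 0.0850 RPM, and the 14 peaks were spread over the whole range. Replicate 1 was highest at all of them but those at 70.5 and 75.5 kb, against 34.6% of all upstream peaks. The peak at 37.1 kb was the strongest of the gene's 30 listed peaks.

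**Figure D5:**
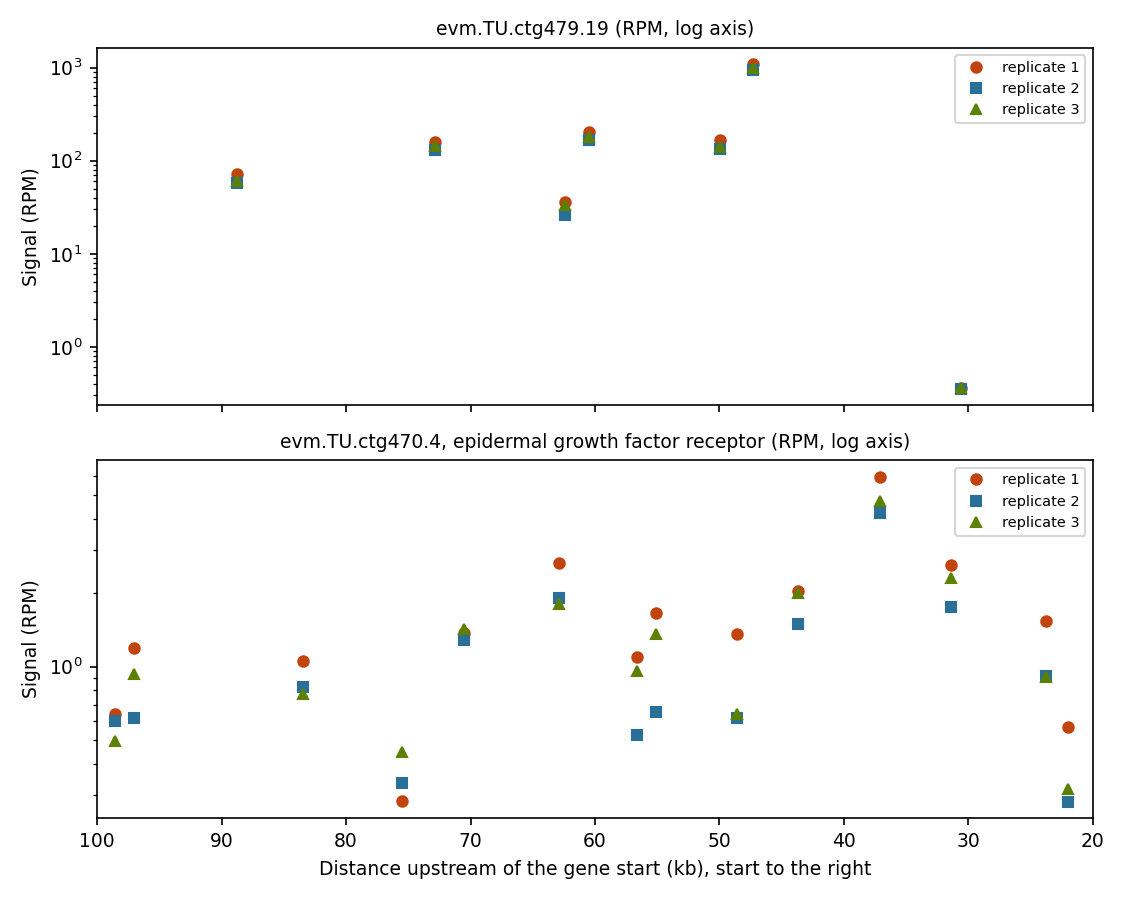
Signal in RPM, on log axes, of the upstream peaks of evm.TU.ctg479.19 (top) and of evm.TU.ctg470.4, the epidermal growth factor receptor (bottom), by distance upstream of the gene start; points are replicates. The first gene holds the strongest listed peak, 1005 RPM, beside a peak of 0.358 RPM, while the 14 peaks of the second lie between 0.355 and 4.97 RPM. Whether accessibility alone gives the high values of the first gene was not tested.

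Among G-protein-coupled receptors (GPCRs), membrane proteins that pass outside signals to G proteins, the adhesion GPCR gene evm.TU.ctg485.29 had the strongest upstream peak. Its peak 38.1 kb away had 5.88, 4.50 and 4.42 RPM (4.93 ± 0.825), the highest of the gene's 15 listed peaks. A pair of peaks at 22.5 and 21.9 kb, separated by 0.091 kb, had 3.08 ± 0.174 and 1.19 ± 0.115 RPM. The GPCR candidate evm.TU.ctg71.25, which passed the study's structure predictions, had 9 upstream peaks. The strongest lay 97.3 kb away with 3.19, 5.34 and 3.25 RPM (3.93 ± 1.23), where replicate 2 alone was high. The candidate evm.TU.ctg288.3 did not pass these predictions. Its peak 28.2 kb away had 3.26, 1.85 and 2.45 RPM, above the gene's start peak at 0.851 ± 0.0854 RPM.

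The other receptor genes and receptor candidates of the study had upstream peaks from 0.243 to 2.05 RPM, on both sides of the 0.657 RPM median of all upstream peaks. Those called candidates in this paragraph did not pass the study's structure predictions for GPCRs. For evm.TU.ctg25.48 and evm.TU.ctg115.32 these predicted no transmembrane helix. Frizzled-10 (evm.TU.ctg321.8), a receptor for Wnt ligands, had 2 upstream peaks of 0.541 ± 0.161 and 0.243 ± 0.0633 RPM, against 4.83 ± 0.964 RPM at its start, and only the first was above background in every replicate. The receptor of RYamide, an arthropod neuropeptide, had 2 of 0.453 ± 0.197 and 0.351 ± 0.142 RPM (evm.TU.ctg441.12). The opsin-family gene evm.TU.ctg179.30 had 3, from 0.404 to 0.919 RPM, and although low they included its strongest listed peak. The candidates evm.TU.ctg25.48 and evm.TU.ctg115.32 had 1 each, at 1.13 ± 0.108 and 0.920 ± 0.0953 RPM, below their start peaks at 2.34 ± 0.577 and 3.36 ± 0.908 RPM. The candidate evm.TU.ctg1716.2 had 8, from 0.262 to 2.05 RPM, of which 6 were above background in every replicate. At evm.TU.ctg41.1 the 3 upstream peaks lay between 0.588 and 0.809 RPM, and evm.TU.ctg42.32 had 1 at 0.355 ± 0.0554 RPM.

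The signal transduction gene evm.TU.ctg470.6 had 5, from 0.450 to 1.30 RPM, all above background and all below its start peak at 1.62 ± 0.306 RPM. Of the 21 genes, 7 had no upstream peak, among them evm.TU.ctg756.7 for Loco, a regulator of G-protein signalling.

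Gene Ontology terms were readable for 567 genes, a section of the list that the study selected for changes in both accessibility and expression. That selection used these samples, so the values below are not independent evidence, and no enrichment was computed. Of 24 genes with the term DNA-binding transcription factor activity, 17 had upstream peaks, 67 in all, with a median of 0.668 ± 0.0308 RPM (SD, n = 3) and 83.6% above background. The 30 of 46 signal transduction genes with upstream peaks had 134 with a median of 0.803 ± 0.0643 RPM, and the 21 of 27 protein kinase genes had 90 with 0.805 ± 0.119 RPM, with 94.8% and 95.6% above background. All upstream peaks together had 0.667 ± 0.0214 RPM and 88.3% above background. The strongest transcription factor peak stood 26.1 kb before evm.TU.ctg357.14, with 8.35, 5.31 and 6.28 RPM (6.65 ± 1.56), followed by evm.TU.ctg1232.1 at 60.7 kb (3.93 ± 0.528), evm.TU.ctg77.42 (3.53 ± 0.305), evm.TU.ctg37.21 (2.96 ± 0.556) and evm.TU.ctg501.14 (2.05 ± 0.259). Among signal transduction genes the strongest stood 43.8 kb before evm.TU.ctg144.4, with 7.98, 5.73 and 6.27 RPM (6.66 ± 1.17), and the fifth at evm.TU.ctg674.9 with 3.10 ± 0.263 RPM, the epidermal growth factor receptor and both leading GPCR genes standing between them. Among kinase genes the strongest peak stood 46.8 kb before evm.TU.ctg607.24, with 5.11 ± 0.857 RPM, ahead of the epidermal growth factor receptor's at 4.97 ± 0.895 RPM. A further peak of evm.TU.ctg607.24 at 27.1 kb had 3.20 ± 0.495 RPM, and evm.TU.ctg215.33 had 2.29 ± 0.613 RPM. The files give no names for these genes, and the factor or kinase family is not known here.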

How the data were processed

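ATAC-seq libraries of the 3 ArR_30min replicates were analysed. The authors trimmed the reads and aligned them with BWA, discarded duplicates, mitochondrial and poorly mapped reads, and used MACS2 for peak calls and ChIPseeker for gene assignment. The submitters’ processing notes also name BWA and MACS2. The deposited table gives raw read counts per merged peak and library. It also gives the authors' RPM values, which match (count + 1) / library total in each peak with deviations of at most 0.0005%, so totals were recovered from them. These totals are close to 2 times the deduplicated reads, so both mates of a pair were probably counted, which makes p-values from reads too small. The exact interval for the share above background is too narrow because neighbouring peaks and shared libraries are not independent. Alignment to a related species loses reads where the genomes differ. Per-sample columns of other samples numbered 0.

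Signal was compared as log2(RPM + 0.0691), the pseudocount being 0.1 of the median. Background was the library's reads outside peaks over the summed largest listed coordinate of each contig (1583 Mb) less the 43.2 Mb covered, and calls required an adjusted p under 0.05 in each replicate. Tests on simulated data preceded use. Peaks named are the 10 strongest, the strongest at the 5 genes with most, those of 21 genes of the study, the 5 strongest for each of 3 Gene Ontology terms, 3 on each side of each distance limit, and the 5 most and least variable. The members and lists were chosen with earlier results of these data known. The values of 1 of the 21 genes are not reported here. Gene names come from the study's text and their roles from it or general knowledge. No genome was used here, so the planned sequence content and named gene families were not analysed, and the cyst label could not be checked by markers. Alternatives were per-kb scaling, pseudocount, filters, width, overlap, background, left-out replicates, and TMM (edgeR 4.0.16) or DESeq2 1.42.0 factors. Python 3.11.15, scipy 1.17.1 and R 4.3.3 were used.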

Additional observations from a re-analysis of the deposited data

How the results depend on the processing

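The differences from the 3 to 20 kb peaks and from start peaks kept their direction under all alternatives run, from -0.14 to -0.04 and from -1.46 to -0.47 (log2). Leaving out 1 replicate gave -0.14 to -0.12 and -1.46 to -1.22. The difference from peaks beyond 100 kb was -0.0067 among peaks at or above the median signal, against 0.04, and 0.02 to 0.06 with 1 replicate left out. Upstream peaks above background numbered 15716 to 16519 with 1 replicate left out (89.2% to 93.8%, all peaks 90.9% to 94.8%) and 8441 with 2 times the background density (47.9%, all peaks 51.6%). Halved counts gave 13647 (77.5%, all peaks 80.4%), and a window widened by the read length of 150 bp, chosen after seeing the data, 11883 (67.5%, all peaks 71.1%). The share of reads in peaks was 15.6% without the strongest 1% of all peaks, 16.28% by covered length, and 16.49% to 16.60% with 1 replicate left out. The median log2 ratio of replicate 1 to the others was -0.02, and -0.03 and -0.02 with TMM and DESeq2 factors. It was 0.17 among upstream peaks of 100 or more reads in each replicate, a cutoff that favours peaks high in replicate 1. The cause of these shifts was not tested. No paired analysis was possible because the samples analysed here form 1 group. Upstream peaks had a median of 34 to 56 reads per replicate, which limits the precision of single weak peaks.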

Other observations

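Replicate spread differed widely between upstream peaks of similar strength. Among the 1563 with at least 100 reads in every replicate, the coefficient of variation ran from 0.449% to 41.09%. The most variable stood 44.4 kb before evm.TU.ctg1542.2, with 3.75, 2.02 and 1.87 RPM in replicates 1, 2 and 3, followed by peaks at evm.TU.ctg287.9 (4.49, 2.02 and 2.79 RPM), evm.TU.ctg1130.4 (4.66, 2.18 and 2.80 RPM), evm.TU.ctg543.15 (3.89, 2.18 and 1.98 RPM) and evm.TU.ctg539.2 (7.54, 3.76 and 4.34 RPM). Replicate 1 was highest in all 5, and the cutoff of 100 reads favours peaks high in that replicate. The least variable stood 53.6 kb before evm.TU.ctg1571.1, with 2.49, 2.50 and 2.47 RPM, followed by evm.TU.ctg3599.1 (2.40, 2.43 and 2.41 RPM), evm.TU.ctg250.18 (6.37, 6.29 and 6.28 RPM), evm.TU.ctg475.22 (3.34, 3.38 and 3.40 RPM) and evm.TU.ctg2991.3 (2.24, 2.29 and 2.27 RPM). These peaks were picked by their spread, and no test was made.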
